A study of Homo sapiens with 4 samples.

Results

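The genes described are the LIF receptor and JAK-STAT3 genes, 10 genes that encode a cytokine, its receptor subunits, the kinases and transcription factor that carry its signal, and 3 genes that this transcription factor is known to induce. They were chosen by name (LIF, LIFR, IL6ST, IL6R, JAK1, JAK2, STAT3, SOCS3, SOCS2 and PIM1) from 62218 genes with a transcript in the deposited count tables, and 27634 of those genes, including all 10, had enough counts to be tested. Nanopore cDNA libraries were made from total RNA of H1, an established human embryonic stem cell line of wild-type genotype, in 2 states with 2 libraries each. Primed hESCs (labelled TesR) were grown in mTeSR medium on Matrigel in normal oxygen. Naïve hESCs (labelled FINE) were derived from H1 primed hESCs and kept in low oxygen on growth-factor-reduced Matrigel, in a medium that held recombinant human LIF, activin A, bFGF, dasatinib, AZD5438, the RAF inhibitor SB590885, the MEK inhibitor PD0325901 and the ROCK inhibitor Y-27632. The confluency given at harvest also differed between the states. Medium, added LIF, oxygen and derivation therefore cannot be told apart from the state in any comparison below, and both states come from a single line. No source says whether the 2 libraries of a state came from separate cultures, so the p-values measure only the spread between these libraries, which may be technical.

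LIF is a secreted cytokine of the interleukin 6 family. It binds the LIF receptor (LIFR), which pairs with gp130, the shared signalling subunit encoded by IL6ST. Kinases of the JAK family bound to these receptor chains phosphorylate STAT3, which enters the nucleus and switches on target genes, among them SOCS3, whose product shuts the receptor down again, and PIM1, a kinase that favours survival. In mouse embryonic stem cells this route sustains the naïve state, and human media for naïve cells often contain LIF, whereas conventional primed human cultures do not depend on it.

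In these libraries, genes at the receiving and the responding end of the route were lower in primed than in naïve hESCs. On the transcript with the largest mean count, JAK1, JAK2 and STAT3 did not pass the test. That contrast depends on the transcript chosen. On spans clear of other genes JAK1 (log2 fold change −0.71) and, at low counts, JAK2 (−1.10) were also called lower in primed hESCs, and STAT3 was not. LIFR, IL6R, SOCS3 and PIM1 were 4.19-fold to 6.07-fold higher in naïve hESCs and SOCS2 and LIF 2.44-fold and 2.11-fold higher, as ratios of mean normalised counts. On spans clear of other genes the folds of LIFR and IL6R were smaller, at 3.16 and 3.14. In 3 genes the count of the whole gene span hid a different picture. Almost all counts of IL6ST lay on a copy of the ribosomal gene RPL41 inside an intron. The counts of LIFR and JAK1 joined a proximal part with a distal 5′ stretch that moved differently.

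The sequences shown first are those on which the statements about LIFR, JAK1 and IL6ST turn. The consensus TTCNNNGAA, the palindromic site known to be bound by STAT proteins, was searched in the 300 bases from 250 before to 50 after the start of 12 transcripts of the 10 genes on GRCh38, and since it reads the same on both strands a single search covers both. It occurred in 3 of these 12 windows, among them that of LIFR-201, against 1900 of 27596 windows of the same length at the starts of all genes searched, or 6.89%. A match describes letters in the window, not binding.

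LIFR and JAK1 each have annotated starts far apart, and their windows are shown in pairs because the counts over the distal and the proximal parts differed. LIFR-201 starts upstream (window chr5:38595355-38595654, minus strand) and LIFR-202 downstream (chr5:38556597-38556896, minus strand). The sequences run 5′ to 3′. The distal window of LIFR held 2 CpG dinucleotides and the proximal one 51, against a median of 17 over all windows. The match to TTCNNNGAA, in capitals, was in the distal window of LIFR, 166 to 158 bases before the start.
LIFR-201: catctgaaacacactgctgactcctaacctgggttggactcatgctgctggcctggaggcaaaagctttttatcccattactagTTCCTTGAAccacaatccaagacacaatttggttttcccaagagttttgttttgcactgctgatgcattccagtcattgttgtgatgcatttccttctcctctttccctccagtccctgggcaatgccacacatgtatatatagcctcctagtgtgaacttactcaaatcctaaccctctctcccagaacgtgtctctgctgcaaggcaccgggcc
LIFR-202: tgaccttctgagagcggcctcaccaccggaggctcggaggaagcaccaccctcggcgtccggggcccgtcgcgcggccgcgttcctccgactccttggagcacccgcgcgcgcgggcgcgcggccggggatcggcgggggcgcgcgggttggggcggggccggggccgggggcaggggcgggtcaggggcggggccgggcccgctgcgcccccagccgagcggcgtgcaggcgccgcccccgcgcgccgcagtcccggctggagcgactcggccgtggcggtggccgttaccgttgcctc

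The distal start of JAK1 is that of JAK1-212 (window chr1:65067683-65067982, minus strand), and the proximal one that of JAK1-201 (chr1:64966500-64966799, minus strand). These windows held 17 and 43 CpG dinucleotides, and neither held a match, so nothing is in capitals.
JAK1-212: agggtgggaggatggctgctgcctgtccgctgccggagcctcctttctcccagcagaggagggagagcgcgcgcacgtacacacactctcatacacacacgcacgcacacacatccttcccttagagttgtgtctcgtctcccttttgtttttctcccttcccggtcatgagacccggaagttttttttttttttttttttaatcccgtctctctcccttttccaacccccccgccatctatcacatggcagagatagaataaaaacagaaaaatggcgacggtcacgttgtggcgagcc
JAK1-201: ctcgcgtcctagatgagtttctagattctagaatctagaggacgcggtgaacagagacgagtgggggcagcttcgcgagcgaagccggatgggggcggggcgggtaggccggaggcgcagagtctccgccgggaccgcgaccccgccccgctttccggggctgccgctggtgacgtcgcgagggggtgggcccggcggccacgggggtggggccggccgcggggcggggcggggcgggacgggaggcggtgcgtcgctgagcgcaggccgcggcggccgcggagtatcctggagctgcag

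For IL6ST, the sequence that matters is the 78-base copy of the coding sequence of RPL41, a small protein of the large ribosomal subunit, at chr5:55944656-55944733 on the plus strand, opposite to IL6ST. The annotation lists it as a processed pseudogene, ENSG00000264281. It lies in the intron between exons 15 and 16 of the 17 exons of IL6ST-204 and touches no exon of it. All 78 of its bases are the same as in RPL41-202, and around it 427 bases (chromosome 5 from 55944615 to 55945041) match that transcript at 99.3%, with 3 mismatches.
RPL41 copy in IL6ST: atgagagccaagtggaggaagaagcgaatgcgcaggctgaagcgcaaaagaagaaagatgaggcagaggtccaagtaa
RPL41-202 coding sequence: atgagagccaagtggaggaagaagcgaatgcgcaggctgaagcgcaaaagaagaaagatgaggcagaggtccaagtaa

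For each gene the value was the count of the annotated transcript with the largest mean count, where a count is an alignment that touches the span from start to end of the transcript. Levels are given in CPM, the count as a share of the library after TMM scaling, which sets libraries on a common level by their shared genes. Of the 10 genes, 7 were lower in primed hESCs, 0 were higher and 3 were not called at an adjusted p under 0.05 by edgeR's quasi-likelihood test. Of all genes tested 70.0% were called, 32.6% lower and 37.4% higher in primed hESCs. The median log2 fold change (primed minus naïve) of the 10 genes was −1.18, beside 0.08 over all genes tested. In 8 of the 10 genes both naïve libraries lay above both primed libraries in CPM, whereas the states overlapped for JAK1 and JAK2. Over all genes tested 39.6% had naïve above primed without overlap. Since the RNA came from bulk cultures, fewer cells that use a gene and less of its RNA per cell cannot be told apart. The 4 libraries held between 129276054 and 161548901 counts over all transcripts, with more in the naïve libraries. These totals add an alignment once for each span and place, so they do not measure depth. The size factors by which DESeq2 scales libraries went the other way, at 0.840 and 0.946 for naïve against 1.11 and 1.17 for primed.

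**Figure D1:**
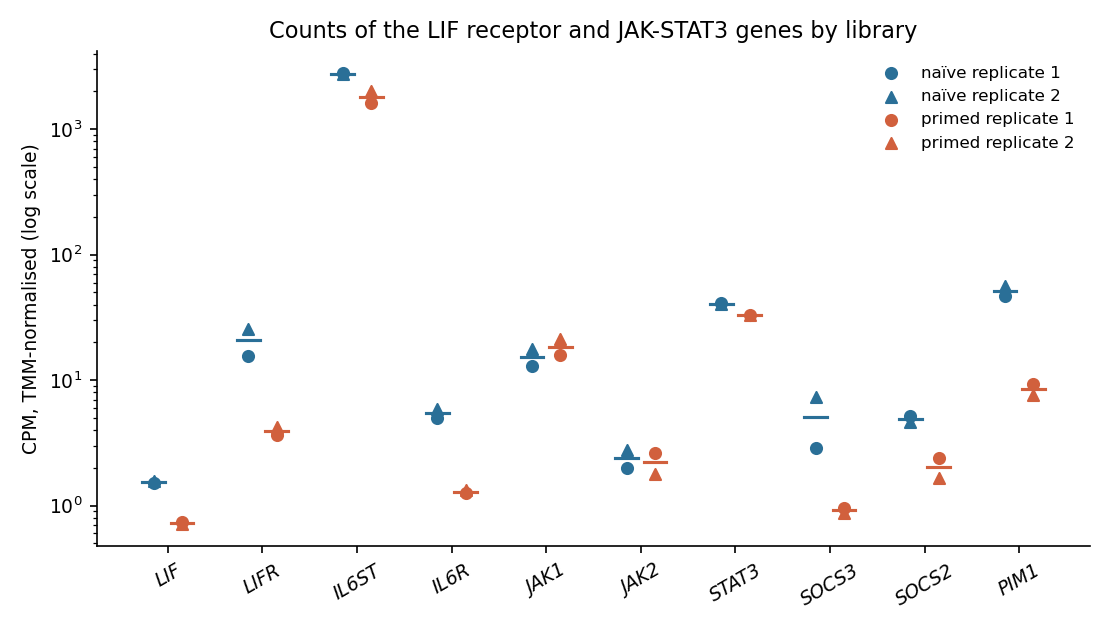
TMM-normalised CPM of the 10 genes in each of the 4 libraries on a log scale, with a line at the mean of each state and circles and triangles for replicates 1 and 2. The primed points lie below the naïve points for 8 genes and overlap them for JAK1 and JAK2, and the naïve points of SOCS3 and LIFR lie furthest apart.

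The scaling between libraries bears on these directions, because library size in place of TMM (72.5% of genes called) moved the all-gene median from 0.08 to 0.72 on the log2 scale. Under that scaling IL6ST came to 0.03, STAT3 to 0.34 and JAK1 to 0.91, while LIFR, IL6R, SOCS3, SOCS2 and PIM1 stayed negative and called, and LIF stayed negative without a call (−0.44, adjusted p = 0.236 by edgeR's quasi-likelihood test). Relative to the median of all genes under TMM, 9 of the 10 genes lay lower and 1, JAK1, lay higher in primed hESCs. On that relative scale PIM1 stood at −2.68 and STAT3 at −0.38. A change of scaling shifts all genes by nearly the same amount, and subtracting the median takes that shift out. The relative values are therefore bound to be nearly the same under the other scalings, which is no test of the scaling. The relative scale takes the median gene as its zero, and whether that gene was unchanged was not tested.

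LIF, the ligand, was counted on LIF-201 (ENSG00000128342, chromosome 22 from 30240453 to 30246759). Its counts were 35 and 40 in the naïve libraries and 22 in each primed library. The states did not overlap, but all values were low. The level fell from 1.54 ± 0.0357 CPM (SD, n = 2) to 0.732 ± 0.0211 CPM (SD, n = 2), a log2 fold change of −1.07 ± 0.33 (SE) with an adjusted p of 0.00447 by edgeR's quasi-likelihood test. That call was lost when either primed library was left out (adjusted p = 0.0653 without replicate 1 and 0.0816 without replicate 2, edgeR), beside 57.2% and 57.3% of all genes called in those fits. The antisense genes LIF-AS1 and LIF-AS2 overlap both annotated LIF transcripts between them, with 25 and 29 counts in naïve hESCs against 17 and 18 in primed hESCs on LIF-AS1, and strand was not used in the counting. Alignments of LIF and of these antisense genes therefore cannot be told apart, and no LIF transcript is clear of them.

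LIFR, the LIF-binding receptor chain, was counted on LIFR-201 (ENSG00000113594, chromosome 5 from 38474963 to 38595404). Its counts were 362 and 659 in naïve hESCs against 107 and 130 in primed hESCs. The naïve libraries differed from each other more than the primed ones did, yet both lay well above them. The level was 20.7 ± 7.16 CPM (SD, n = 2) in naïve and 3.93 ± 0.427 CPM (SD, n = 2) in primed hESCs, with a log2 fold change of −2.40 ± 0.20 (SE) and an adjusted p of 2.02e-14 by edgeR's quasi-likelihood test.

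The LIFR counts were then split by stretch. LIFR-202, the MANE Select transcript, runs from 38474668 to 38556646, clear of other genes. It had 194, 317, 95 and 103 counts in naïve replicates 1 and 2 and primed replicates 1 and 2, or 10.4 ± 2.84 against 3.29 ± 0.0933 CPM (SD, n = 2 each), which is 3.16-fold higher in naïve hESCs. On this span alone the log2 fold change was −1.67 ± 0.20 (SE), with an adjusted p of 2.20e-11 in an edgeR fit on canonical transcripts, which called 70.4% of all genes. Alignments that touched LIFR-201 but not LIFR-202 can lie only in the distal 5′ stretch from 38556647 to 38595404. They were estimated by the count of LIFR-201 less that of LIFR-202, which was 168, 342, 12 and 27 in the same order. This is a lower estimate, since LIFR-202 reaches 295 bases beyond LIFR-201 at the 3′ end and any alignments on those bases alone were subtracted as well. In the naïve libraries the difference made up 46.4% and 51.9% of the LIFR-201 count, and in the primed libraries 11.2% and 20.8%. The distal stretch was thus 16.1-fold higher in naïve hESCs (10.3 ± 4.33 against 0.644 ± 0.334 CPM, SD, n = 2 each), with no test made on this difference of counts. The fold rests on few primed alignments and came to 25.4 without primed replicate 2, and to between 11.3 and 20.8 without each of the other libraries. An alignment that reached from the distal stretch into LIFR-202 is not in that number. The antisense gene LIFR-AS1 covers almost all of the distal stretch and runs on beyond it, and its transcript with the most alignments had 189, 371, 14 and 22 counts. Without strand, the distal alignments cannot be assigned to LIFR or to LIFR-AS1, and the proximal value is the one clear of that overlap.

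IL6ST encodes gp130, the chain that LIFR and other receptors of the family need to signal. On IL6ST-204 (ENSG00000134352, chromosome 5 from 55935095 to 55994963) it had 64504 and 70364 counts in naïve hESCs against 47975 and 61888 in primed hESCs. The states did not overlap in CPM. The log2 fold change was −0.61 ± 0.14 (SE), with an adjusted p of 0.000298 by edgeR's quasi-likelihood test. The call was lost without primed replicate 1 (−0.29, adjusted p = 0.197, edgeR).

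The RPL41 copy shown above accounted for most of these alignments. Its own 78-base span had 59097 and 62101 counts in naïve hESCs against 44999 and 57020 in primed hESCs. That was 91.6% and 88.3% of the IL6ST-204 count in naïve hESCs and 93.8% and 92.1% in primed hESCs. The source gene RPL41, on chromosome 12, had 62124, 67490, 46670 and 60322 counts on RPL41-202, so that the copy held between 92.0% and 96.4% of the count of RPL41 in every library. The recorded counting options keep every alignment of a read that aligns at several places. Of the 13 IL6ST transcripts, those whose span includes the copy share its counts.

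Stretches of IL6ST that miss the copy gave much lower counts and a larger difference. The span of IL6ST-208 (55955980 to 55960480), which touches 3 exons of IL6ST-204 and overlaps no other gene, had 847 and 1086 counts in naïve hESCs against 40 and 45 in primed hESCs. The span of IL6ST-205 (55947565 to 55951506), the only other IL6ST transcript clear of other genes, had 399 and 598 against 55 and 38. Taken as the gene's value, IL6ST-208 gave a log2 fold change of −4.76 ± 0.20 (SE), with an adjusted p of 1.15e-17 in the edgeR fit on spans clear of other genes. Outside the window of IL6ST-210 (55941523 to 55947594), which holds the copy, 949 and 1135 alignments remained in naïve hESCs against 62 and 79 in primed hESCs. That is 42.8 ± 2.37 against 2.34 ± 0.332 CPM (SD, n = 2 each), or 18.3-fold more in naïve hESCs. These counts include alignments to the lncRNA ENSG00000249236, which overlaps the 5′ end of IL6ST on the other strand and extends well beyond it (846, 1157, 187 and 276 counts). The lncRNA ENSG00000262211, on the other strand at the 3′ end, lies mostly outside the window too (390, 634, 37 and 35 counts). Outside the copy alone, 5407 and 8263 alignments remained in naïve hESCs against 2976 and 4868 in primed hESCs, 2.15-fold more CPM in naïve hESCs. Those can also lie on the RPL41-like bases around the copy. Each of these counts lay higher in both naïve libraries.

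**Figure D2:**
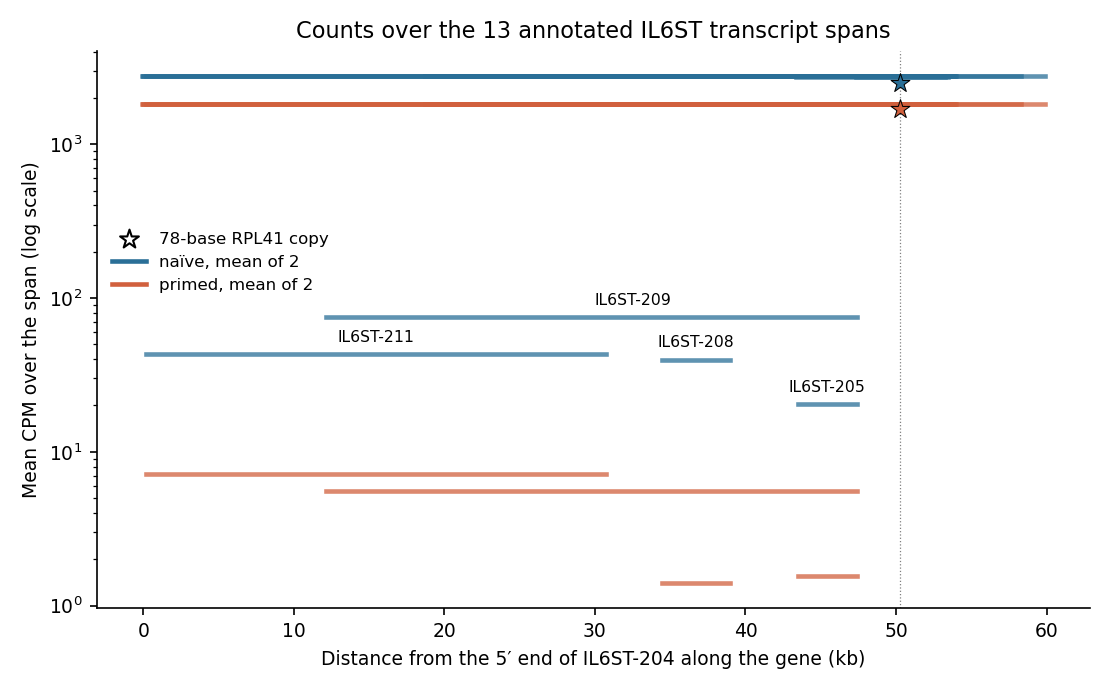
Mean CPM (log scale) over each of the 13 annotated IL6ST transcript spans, drawn from the 5′ end of IL6ST-204 at 0 kb, with naïve in blue, primed in orange and stars for the 78-base RPL41 copy. Spans that cross the copy lie at the level of the stars, and the 4 spans that miss it lie far lower, with the naïve and primed lines further apart.

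IL6R, the receptor chain that binds interleukin 6, was counted on IL6R-202 (ENSG00000160712, chromosome 1 from 154405343 to 154469450). Its counts were 115 and 150 in naïve hESCs against 37 and 41 in primed hESCs. The libraries of a state lay close together and the states apart. The level was 5.43 ± 0.632 against 1.30 ± 0.0567 CPM (SD, n = 2 each), with a log2 fold change of −2.06 ± 0.25 (SE) and an adjusted p of 1.30e-09 by edgeR's quasi-likelihood test. IL6R-AS1 overlaps the 5′ end with 21, 28, 7 and 3 counts. On IL6R-205, a span clear of other genes, the counts were 44, 50, 19 and 18, and the log2 fold change was −1.60 ± 0.33 (SE, adjusted p = 0.000121, edgeR).

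JAK1, the kinase that gp130 chiefly uses, was counted on JAK1-212 (ENSG00000162434, chromosome 1 from 64833245 to 65067732). Its counts were 297 and 453 in naïve hESCs against 469 and 648 in primed hESCs. In CPM the states overlapped, at 15.3 ± 3.45 against 18.5 ± 3.67 (SD, n = 2 each). The log2 fold change was 0.27 ± 0.17 (SE), with an adjusted p of 0.147 by edgeR's quasi-likelihood test. JAK1 was called higher in primed hESCs without naïve replicate 2 (0.47, adjusted p = 0.0409, edgeR, in a fit that called 64.3% of all genes) and without primed replicate 1 (0.63, adjusted p = 0.00974, edgeR).

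The JAK1 value joined stretches that moved in opposite directions. On JAK1-201, the MANE Select transcript, the log2 fold change was −0.68 ± 0.18 (SE), with an adjusted p of 0.000426 in the edgeR fit on canonical transcripts. On JAK1-218 (64833254 to 64873496), clear of other genes, the counts were 172, 303, 175 and 169 and the log2 fold change −0.71 ± 0.20 (SE, adjusted p = 0.00296, edgeR). The proximal span JAK1-210 (64833313 to 64966919) had 264 and 425 counts in naïve hESCs against 237 and 271 in primed hESCs, 1.66-fold more CPM in naïve hESCs. The alignments that touched JAK1-212 but not JAK1-210 numbered 33 and 28 in naïve hESCs against 232 and 377 in primed hESCs. All but 68 bases of where they could lie form the distal 5′ stretch from 64966920 to 65067732. There the level was 10.1 ± 3.12 CPM in primed and 1.26 ± 0.235 CPM in naïve hESCs (SD, n = 2 each), 7.98-fold higher in primed hESCs, with no test made on this difference of counts. The distal alignments were 11.1% and 6.18% of the JAK1-212 count in naïve hESCs against 49.5% and 58.2% in primed hESCs. They do not include alignments that reached into JAK1-210. Other genes lie within the stretch on the same strand as JAK1. The lncRNA LINC01359 had at most 4, 6, 17 and 24 counts on any transcript, and the microRNA precursors MIR3671 and MIR101-1 had 3, 4, 31 and 52 and 1, 1, 28 and 43. Added up over the 6 annotated genes inside the stretch, the counts of their highest transcripts came to 9 and 16 in naïve and 78 and 130 in primed hESCs. This sum leaves out their other transcripts and any RNA that is not annotated. Which gene the distal alignments came from was not tested.

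**Figure D3:**
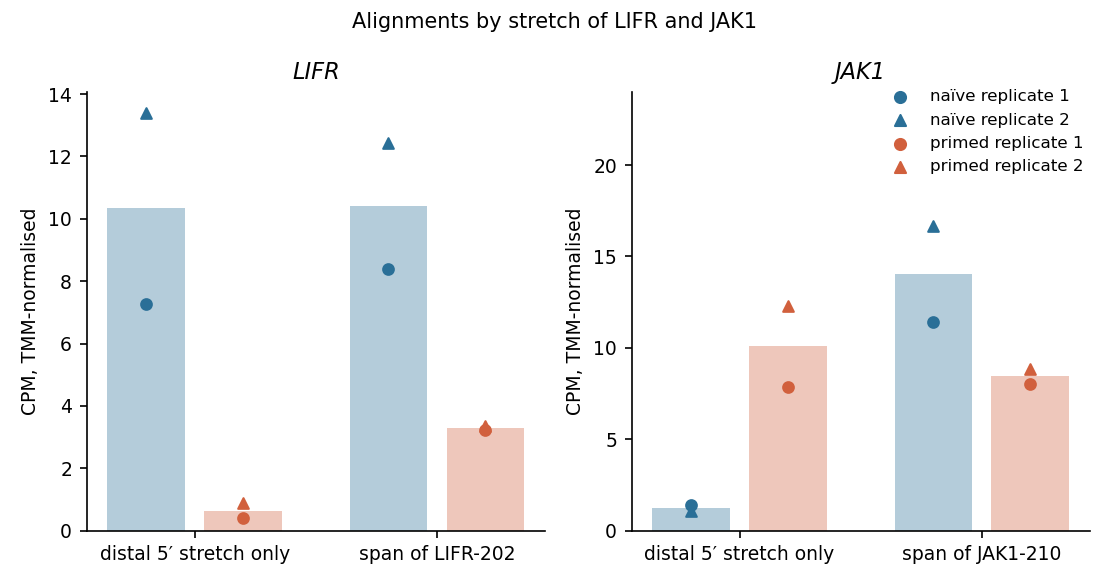
TMM-normalised CPM of the alignments confined to the distal 5′ stretch (a difference of span counts) and of those over the proximal span of LIFR (LIFR-202, left) and JAK1 (JAK1-210, right), with bars at the mean of 2 libraries and points for each library. The distal stretch is higher in naïve hESCs for LIFR (16.1-fold, or 25.4-fold without primed replicate 2) and higher in primed hESCs for JAK1 (7.98-fold), whereas both proximal spans are higher in naïve hESCs.

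JAK2, a second kinase of the family, was counted on JAK2-201 (ENSG00000096968, chromosome 9 from 4985272 to 5129948). Its counts were 46 and 71 in naïve hESCs against 78 and 55 in primed hESCs. The states overlapped, at 2.39 ± 0.557 against 2.22 ± 0.605 CPM (SD, n = 2 each), and the log2 fold change was −0.11 ± 0.27 (SE, adjusted p = 0.723, edgeR's quasi-likelihood test). On JAK2-202, a span of 37033 bases at the 5′ end that is clear of other genes, the counts were 20, 25, 17 and 8. That gave −1.10 ± 0.42 (SE) with an adjusted p of 0.0216 by edgeR, at counts so low that a few alignments decide it.

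STAT3, the transcription factor of the route, was counted on STAT3-201 (ENSG00000168610, chromosome 17 from 42313324 to 42388442). None of its 50 annotated transcripts overlaps another gene. Its counts were 949 and 1025 in naïve hESCs against 978 and 1008 in primed hESCs. The level was 40.6 ± 0.680 against 33.0 ± 0.246 CPM (SD, n = 2 each), so the states did not overlap although the difference was small. The log2 fold change was −0.30 ± 0.15 (SE), with an adjusted p of 0.0650 by edgeR's quasi-likelihood test, and under DESeq2, which called 58.7% of all genes, it was −0.35 with an adjusted p of 0.0378. STAT3 thus stood at the edge of the threshold, on either side of it depending on the fit.

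SOCS3, the inhibitor that STAT3 induces and that binds JAK and gp130 in turn, was counted on SOCS3-201 (ENSG00000184557, chromosome 17 from 78356778 to 78360077). Its counts were 67 and 186 in naïve hESCs against 28 and 27 in primed hESCs. The naïve libraries differed widely and the primed libraries hardly at all. The level was 5.09 ± 3.10 against 0.915 ± 0.0499 CPM (SD, n = 2 each), with a log2 fold change of −2.48 ± 0.31 (SE) and an adjusted p of 3.12e-09 by edgeR's quasi-likelihood test. Its size rested on the naïve libraries, at −1.72 without naïve replicate 2 and −3.05 without naïve replicate 1.

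SOCS2, a related inhibitor known chiefly for growth hormone and STAT5 signalling, was counted on SOCS2-201 (ENSG00000120833, chromosome 12 from 93569814 to 93576745). Its counts were 120 and 119 in naïve hESCs against 70 and 51 in primed hESCs. The level was 4.93 ± 0.380 against 2.02 ± 0.505 CPM (SD, n = 2 each). The log2 fold change was −1.29 ± 0.24 (SE), with an adjusted p of 9.83e-06 by edgeR's quasi-likelihood test. SOCS2-AS1 overlaps the 5′ end with 59, 54, 48 and 42 counts, and on SOCS2-210, which is clear of it, the counts of 111, 104, 60 and 44 gave −1.31 ± 0.25 (SE, adjusted p = 4.76e-05, edgeR).

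PIM1, a serine/threonine kinase and textbook STAT3 target, was counted on PIM1-201 (ENSG00000137193, chromosome 6 from 37170152 to 37175428), which overlaps no other gene. Its counts were 1082 and 1437 in naïve hESCs against 275 and 235 in primed hESCs. The states were wide apart and the replicates close. The level was 51.6 ± 6.66 against 8.50 ± 1.19 CPM (SD, n = 2 each), with a log2 fold change of −2.60 ± 0.17 (SE) and an adjusted p of 4.22e-18 by edgeR's quasi-likelihood test. The difference was present along the gene, at 5.96-fold over the inner span of PIM1-203 and 6.45-fold over the alignments outside it. No match to TTCNNNGAA was found in its 300-base window.

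**Figure D4:**
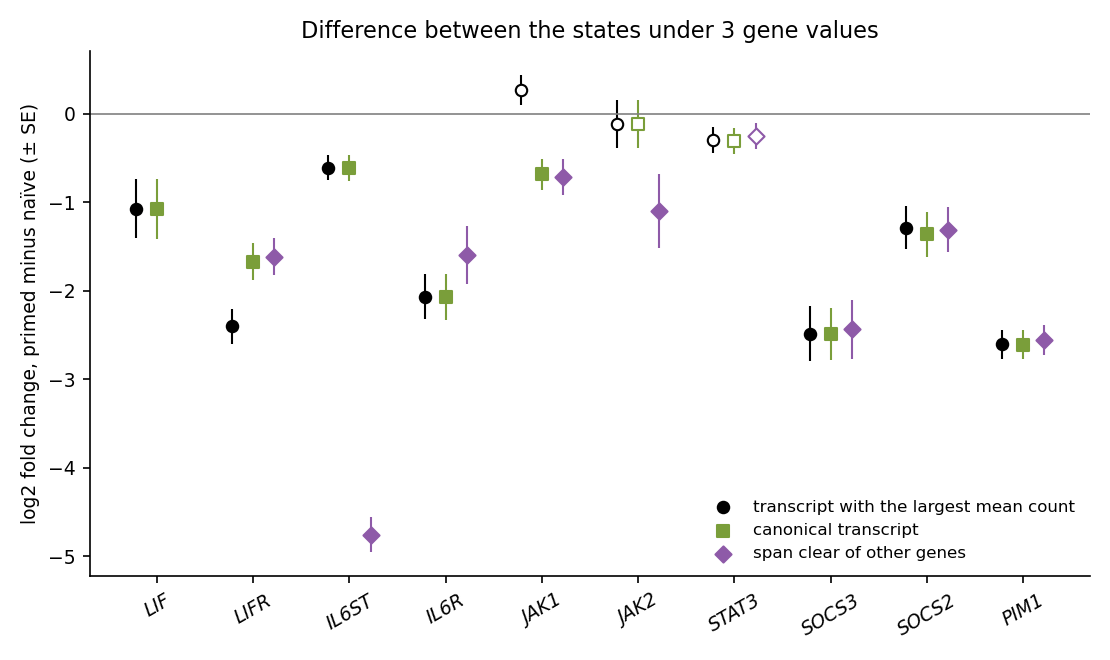
Log2 fold change (primed minus naïve, error bars SE from edgeR) of the 10 genes with 3 choices of transcript as the gene's value, where filled points passed an adjusted p under 0.05 and open points did not. The choice moves IL6ST from −0.61 to −4.76, turns JAK1 from 0.27 to −0.68 and −0.71, and brings JAK2 past the threshold, while SOCS3, SOCS2 and PIM1 hardly move and LIF has no span clear of other genes.

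With the gene value taken only from spans clear of other genes, 9 of the 10 genes could be tested and 8 were called lower in primed hESCs, beside 69.7% of all genes called in that fit and 32.7% called lower. STAT3 was the gene not called (−0.25, adjusted p = 0.123, edgeR). This choice of transcript was made after the data were seen.

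Levels were compared between genes per kilobase of exonic length. In naïve hESCs the order of CPM per kilobase after IL6ST was PIM1 at 19.1 ± 2.46 (SD, n = 2), STAT3 at 8.26 ± 0.138, JAK1 at 2.91 ± 0.656, LIFR at 2.06 ± 0.710, SOCS3 at 1.86 ± 1.13, SOCS2 at 1.79 ± 0.138, IL6R at 0.942 ± 0.110, LIF at 0.398 ± 0.00924 and JAK2 at 0.340 ± 0.0794. Neighbours from JAK1 to SOCS2, and LIF and JAK2, lay within each other's spread. In primed hESCs PIM1 stood below STAT3, at 3.14 ± 0.439 against 6.71 ± 0.0501 CPM per kilobase, and beside JAK1 at 3.52 ± 0.699. There SOCS2 followed at 0.731 ± 0.183, then LIFR at 0.390 ± 0.0424, SOCS3 at 0.335 ± 0.0182, JAK2 at 0.316 ± 0.0861, IL6R at 0.225 ± 0.00984 and LIF at 0.189 ± 0.00545. Neighbours from LIFR to IL6R lay within each other's spread. IL6ST ranked first in both states at 307 and 202 CPM per kilobase, values set mostly by the RPL41 copy. Counts were taken over whole spans, introns included, so these levels are approximate. The order also rests on the division by exonic length, and whether that division suits these long reads was not tested. In mean CPM, naïve LIFR (20.7) lay above JAK1 (15.3), and naïve JAK2 (2.39) above LIF (1.54). Naïve IL6R (5.43) lay above SOCS3 (5.09) and SOCS2 (4.93). Primed PIM1 lay at 8.50 CPM, below JAK1 at 18.5 CPM.

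Ratios within a library do not depend on scaling between libraries. PIM1 had 114% and 140% of the STAT3 count in naïve hESCs against 28.1% and 23.3% in primed hESCs. SOCS3 had 7.06% and 18.1% against 2.86% and 2.68%, and SOCS2 had 12.6% and 11.6% against 7.16% and 5.06%. Counts of all 3 response genes were therefore larger against STAT3 in both naïve libraries. The ratio of JAK2 to JAK1 overlapped between the states, at 15.5% and 15.7% against 16.6% and 8.49%. LIFR came to 0.561% and 0.937% of the IL6ST count in naïve hESCs against 0.223% and 0.210% in primed hESCs, but with both genes counted on spans clear of other genes the order turned, at 22.9% and 29.2% in naïve hESCs against 238% and 229% in primed hESCs. The IL6R to IL6ST ratio turned in the same way.

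For isoform usage, 123 of the 124 transcripts of the 10 genes were tested, each span beside the remaining spans of that gene. An alignment counts for all spans it touches, so overlapping spans share alignments. STAT3-246 and STAT3-244, for example, both had 949, 1025, 977 and 1005 counts. The test therefore cannot show whether isoform usage differed, and a null result is no sign that it did not. By edgeR's diffSpliceDGE 0 of 123 passed an adjusted p under 0.05 with a change in isoform fraction (dIF) beyond 0.1. Of all 159577 isoforms tested 0.556% passed. Without the dIF threshold 4 isoforms passed, beside 4.27% of all, and these were IL6ST-205, IL6ST-208, IL6ST-209 and IL6ST-211, the spans that miss the RPL41 copy. Each had a lower isoform fraction in primed hESCs. Their isoform fractions were all below 1% of the gene in both states, and the spans that share the copy held the rest. JAK1-209, which begins at the distal start and ends within the gene, had fewer counts than JAK1-212 in each library. Its fraction also rests on the division by exonic length. JAK1-209 went from 18.0% to 29.7% of the summed JAK1 fractions (dIF 0.117) with an adjusted p of 0.145 by edgeR's diffSpliceDGE. It passed without naïve replicate 1 (adjusted p = 0.0416 by edgeR, beside 0.273% of all isoforms) and with the replicate number as a block (adjusted p = 0.0281 by edgeR, beside 0.494%).

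Other genes of the pathway were then described from lists of ligands, receptors, kinases and STATs, inhibitors and STAT3 targets. Of 63 listed genes 55 were tested, of which 12 were higher in primed hESCs, 30 were lower and 13 were not called, beside 37.4% and 32.6% of all genes tested. Their median log2 fold change was −0.50. The span counted for 32 of the 55 overlaps another gene, and on spans clear of other genes 37 could be tested, of which 12 were higher and 14 lower, beside 37.0% and 32.7% of all genes in that fit. The median of these 37 was 0.00, but they are another set of genes than the 55, so the 2 medians cannot be compared directly. Among STAT3 targets tested on clear spans, KLF5 (−4.11), TFCP2L1 (−3.20), PIM3 (−2.69), KLF4 (−2.63) and FOS (−1.80) were negative. So were MCL1 (−1.41), BCL3 (−0.93) and BIRC5 (−0.31), whereas CCND1 (1.05) and PIM2 (1.23) were positive.

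**Figure D5:**
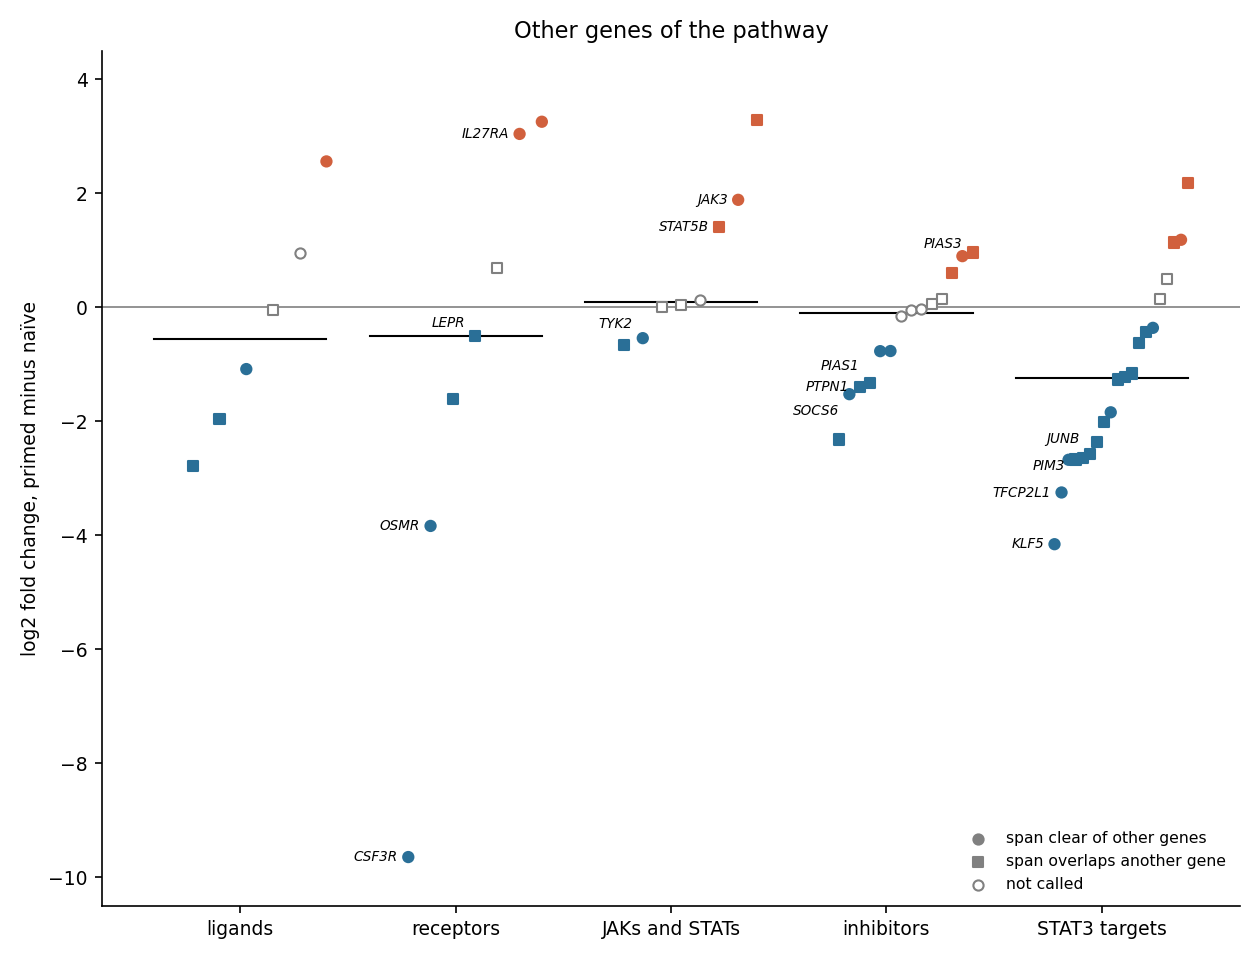
Log2 fold change (primed minus naïve) of the 55 other pathway genes tested, by role, with a line at the median of each list, circles for spans clear of other genes, squares for spans that overlap another gene, and open points for genes not called. STAT3 targets lie mostly below 0 with a median of −1.25, and the JAKs and STATs lie on both sides of 0 with a median of 0.09.

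Among the ligands 6 of 11 were tested, with 1 higher and 3 lower, beside 37.4% and 32.6% of all genes tested. Of 9 receptors 7 were tested, with 2 higher and 4 lower, beside the same shares. CSF3R, the receptor of granulocyte colony-stimulating factor, had 383 and 445 counts in naïve hESCs against 1 and 0 in primed hESCs. With a single primed count, the naïve to primed ratio of CPM was 1024, with an exact 95% interval of 183 to 40510 that covers counting error only. OSMR, the oncostatin M receptor chain that pairs with gp130 as LIFR does, had 213 and 313 against 24 and 21 counts and a log2 fold change of −3.84 ± 0.25 (SE). IL27RA, the interleukin 27 receptor, went the other way with 15 and 16 against 145 and 173 counts and 3.04 ± 0.29 (SE). None of these 3 spans overlaps another gene. The value of LEPR, the leptin receptor (−0.50), rests mostly on LEPROT inside its span (389, 486, 359 and 295 of 431, 533, 450 and 389 counts), and LEPR-207, clear of it, gave 0.29 with an adjusted p of 0.583 by edgeR.

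Of 8 other JAKs and STATs all were tested, with 3 higher and 2 lower, beside 37.4% and 32.6% of all genes tested. JAK3, a kinase best known from lymphocytes, had 30 and 31 counts in naïve hESCs against 121 and 159 in primed hESCs (1.88 ± 0.27, SE). TYK2 had 232 and 249 against 189 and 220 counts (−0.54 ± 0.18, SE). STAT5B had 64 and 110 against 231 and 341 counts, a log2 fold change of 1.41 ± 0.21 (SE), and 0.53 with an adjusted p of 0.186 by edgeR on a shorter clear span of 13, 37, 43 and 43 counts.

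Of 15 inhibitors 14 were tested, with 3 higher and 6 lower, beside 37.4% and 32.6% of all genes tested. SOCS6, which overlaps no other gene, had 146 and 247 against 100 and 67 counts and a log2 fold change of −1.53 ± 0.23 (SE). PIAS1 and PIAS3, which bind STATs, moved apart, at −1.32 and 0.96, and on clear spans at −1.26 and 1.01, both called. The phosphatase PTPN1 gave −1.40, with 530 and 748 counts in naïve hESCs against 313 and 281 in primed hESCs, of which the overlapping ENSG00000232043 held 345, 448, 186 and 125, and it has no span clear of other genes. SOCS1, the nearest relative of SOCS3, had 13, 22, 14 and 34 counts and was not called (0.15, adjusted p = 0.756, edgeR).

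All 20 genes listed as STAT3 targets were tested, with 3 higher and 15 lower and a median log2 fold change of −1.25. Of all genes tested 37.4% were higher and 32.6% lower. Several target spans overlap another gene, among them those of BCL2L1, IER3 and HIF1A, which have no span clear of other genes. KLF5, a transcription factor of early embryonic cells, had 295 and 434 counts in naïve hESCs against 22 and 28 in primed hESCs (−4.16 ± 0.24, SE). TFCP2L1, the factor through which STAT3 is known to act in mouse embryonic stem cells, had 596 and 611 against 74 and 83 counts (−3.25 ± 0.18, SE). PIM3, a paralogue of PIM1, had 786 and 948 against 142 and 194 counts (−2.67 ± 0.17, SE). JUNB, an early-response transcription factor, had 88 and 81 against 23 and 12 counts (−2.57 ± 0.32, SE), in a span crossed by the far larger HOOK2. The 3 higher genes were PIM2, MYC and CCND1, named after their values were seen. PIM2, the remaining PIM kinase, had 275 and 303 against 829 and 794 counts (1.18 ± 0.16, SE), so that the 3 PIM genes did not move together. KLF4 and TFCP2L1 stand in the list of naïve markers as well.

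The labels were checked against marker genes. With TMM, all 8 naïve markers were lower and all 8 primed markers higher in primed hESCs, beside 32.6% and 37.4% of all genes. KLF17 differed little (2200 and 2423 against 2083 and 2236 counts). Its direction rests on TMM, since library sizes before scaling were 29618031 and 30978758 in naïve against 23542381 and 24673469 in primed hESCs. Apart from KLF4 and TFCP2L1, marker spans were not checked for overlap with other genes. Of 8 pluripotency genes shared by both states 5 were higher and 1, NANOG, lower, and POU5F1 had 7606 and 6709 against 8689 and 8520 counts. Markers of trophoblast, the outer layer of the embryo, moved with the state as well. Of 12, 11 were lower in primed hESCs, with a summed level of 3302 and 3651 CPM in the naïve libraries against 12.1 and 12.2 CPM in the primed libraries, where S100P was at 0 in both. Of 5 amnion markers 4 were lower, at 24.6 and 23.0 against 7.13 and 6.03 CPM in sum, and fibroblast markers came to 3.55 and 2.55 against 57.6 and 59.5 CPM, with DCN at 1 count or fewer in every library. Of 3 endoderm markers tested 1 was higher and 1 lower, and of 3 neural markers tested 2 were higher, with sums of 26.7 and 18.6 against 41.0 and 33.4 CPM. The part of these markers in the differences of LIFR, IL6ST, SOCS3 and PIM1 was not tested.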

How the data were processed

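Total RNA of H1 naïve and primed hESCs was reverse transcribed and sequenced as 4 Nanopore cDNA libraries on a PromethION. Per the file headers and labels, the authors aligned reads to GRCh38 with minimap2 and deposited raw counts per transcript of Ensembl annotation 105, made by featureCounts 2.0.0. Under the recorded options an alignment counted for all transcripts whose spans it touched, introns included, without strand and at each place a read aligned. A count is therefore an alignment over a span, not a molecule, and genes inside another gene's span add to it. The deposited totals were 153647482, 161548901, 129276054 and 132927036 counts, with no normalisation. As reads carry no molecular identifiers, intervals cover counting error only.

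Transcripts were named through GENCODE 44 by identifier (242542 of 244825 matched, 97.9% of these at the same coordinates), the unmatched ones holding 1.00% of counts. The value of a gene is that of its transcript with the largest mean count. Genes needed 10 counts or more in 2 or more libraries and were fitted by edgeR 4.0.16 in R 4.3.3 with the state as the only term (TMM, quasi-likelihood test, two-sided, Benjamini-Hochberg adjustment over all genes tested). Isoform usage was tested by diffSpliceDGE on the same filter, with counts that overlapping spans of a gene share. The isoform fraction is the count per exonic length over the sum for the gene. Alternatives were DESeq2 1.42.0, other scalings, filters, gene values and left-out libraries. The fits were tested on simulated data, where 93% of 200 genes and 96% of 200 isoforms changed 4-fold were recovered. Each simulated count was drawn independently, so this does not cover alignments shared between spans. Stretch counts are differences of overlapping spans, chosen after the data were seen and given without a test. Promoter windows were read from hg38 (GRCh38). Python 3.11.15 with pandas 2.3.3, bedtools 2.31.1 for overlapping spans and blastn 2.17.0 for similar sequences completed the tools.

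The genes and lists were chosen with earlier results of these data known. Besides the 10 genes, up to 4 genes per list were named, those with the largest absolute log2 fold change among called genes that had a mean count of 50 or more and states that did not overlap. SOCS1, PIM2, MYC, CCND1, KLF4 and the single marker genes stand outside this rule and were named after their values were seen. Some genes that this rule picks, and some promoter windows, are counted in the totals but not reported here.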

Additional observations from a re-analysis of the deposited data

How the results depend on the processing

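Over the alternatives, PIM1, LIFR, IL6R, SOCS3 and SOCS2 stayed lower in primed hESCs and called in every fit run. Of 146 comparisons of a single value with its alternative, 124 were called in both fits or in neither or, for ratios, stayed near the main value. Values called in neither fit were counted among these even where the sign changed. JAK2 thus went from −0.11 to 0.52 under library size, and STAT3 from −0.30 to 0.27 with total counts as library size. Under library size in place of TMM, IL6ST turned to 0.031 (adjusted p = 0.815) and STAT3 to 0.34 (0.0336), JAK1 passed at 0.91, 2 of the 10 genes were called higher, 23 other pathway genes were called higher, and of all genes 15526 were higher and 4512 lower, against 10327 and 9009 with TMM (77.5% against 53.4% of calls higher). With total counts as library size 4901 genes were lower (75.3% of calls higher), 1 of the 10 and 21 other pathway genes were higher. JAK1 turned to −0.68 on its canonical transcript and −0.71 on a clear span. Clear spans, chosen after seeing the data, left 13431 genes to test and so 9361 calls (4966 higher, 4395 lower) and 26 other pathway genes called, 14 of them lower. On canonical transcripts the naïve over primed ratio of LIFR to IL6ST was 2.06 and that of JAK2 to JAK1 0.668, and on clear spans those of LIFR and IL6R to IL6ST were both 0.112. A threshold on the log2 fold change of 1 left 5120 genes lower.

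Leaving out each library in turn gave 13605 to 16835 genes called (6975 to 9213 higher, 6625 to 7622 lower), 6 to 8 of the 10 genes called (0 to 1 higher, 5 to 7 lower), 34 to 37 other pathway genes (11 to 12 higher, 23 to 25 lower) and 0 to 1 isoforms of the 10 genes; the lone library was assumed to vary like the other state. The isoform was JAK1-209, called without naïve replicate 1 (adjusted p = 0.0416, beside 0.273% of all isoforms). With the replicate number as a block, 1 isoform of the 10 genes, again JAK1-209, was called (adjusted p = 0.0281, beside 0.494% of all isoforms), STAT3 passed at −0.30 (adjusted p = 0.0420, edgeR) and 19682 genes were called. Over genes, the difference between naïve replicates 1 and 2 correlated at 0.0591 with that between primed replicates 1 and 2. With 1 such difference per state, this cannot show whether same-numbered libraries shared a culture or a batch. Without a dIF threshold 4 isoforms of the 10 genes passed. STAT3 also passed with counts summed over transcripts (−0.31, adjusted p = 0.0490, edgeR). The causes of these shifts were not tested beyond the overlaps of spans given above. Low counts, 22 to 40 for LIF and 46 to 78 for JAK2, limit the precision of both.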
